A study of Arabidopsis thaliana with 6 samples.

Results

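The antioxidant enzyme genes of the Arabidopsis thaliana root described here are 38 loci out of 32833 in the deposited table. They were taken from a fixed list of gene identifiers that covers 3 catalases (CAT), 7 ascorbate peroxidases (APX), 7 superoxide dismutases (CSD, FSD and MSD), 8 glutathione peroxidase-like enzymes (GPX), 2 glutathione reductases (GR), 3 dehydroascorbate reductases (DHAR), 5 monodehydroascorbate reductases (MDAR) and 3 peroxiredoxins (PRX). All 38 were found in the table and in the TAIR10.1 annotation, and all 38 had reads in at least 1 library. The list rests on enzyme class and not on measured values, although it was drawn up with earlier results of these data known.

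The libraries came from roots of xal1-2, a loss-of-function mutant of the MADS-box transcription factor gene XAANTAL1 (XAL1), and from roots of wild-type Col-0 (WT), with 3 biological replicates of each. Both genotypes share the Col-0 background and were raised on vertical plates with 0.2X MS salts and 1% sucrose at 22 °C, under 16 h of light and 8 h of dark, with no further treatment. Each replicate was a pool of about 60 plants harvested at 8 days after sowing, from which hypocotyls and cotyledons were left out, so whole roots with all their cell types were measured. The mutant is a single allele, and the study asked which genes differ between its short roots and those of WT.

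Superoxide dismutases turn superoxide into hydrogen peroxide, using copper and zinc (CSD), iron (FSD) or manganese (MSD) at the active site. Hydrogen peroxide is then removed by catalases in the peroxisome, by ascorbate peroxidases in several compartments, and by thiol enzymes, the peroxiredoxins and glutathione peroxidase-like proteins. The ascorbate used up by the peroxidases is restored by monodehydroascorbate and dehydroascorbate reductases, the second of which draws on glutathione that glutathione reductase regenerates, and in roots this balance is linked to the passage of cells from division to differentiation.

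Recovered reads assigned to genes ranged from 6978879 to 9247089 in the xal1-2 libraries and from 7740207 to 8962691 in the WT libraries. XAL1 itself had scaled counts of 76.5, 102 and 103 in xal1-2 replicates 1, 2 and 3, against 264, 250.1 and 269 in WT replicates 1, 2 and 3, so every xal1-2 library lay below every WT library. Here a scaled count is the number of reads of a gene divided by the size factor of its library, and the replicate order 1, 2, 3 is kept throughout. Marker genes of root hair, endodermis, xylem, phloem and meristem were above 0 in all 6 libraries. By limma-trend 3 of 4 phloem markers, 2 of 4 xylem markers and 1 of 5 endodermis markers were called lower in xal1-2, as were 2.27% of all genes tested. DESeq2 called 3, 3 and 2 of them, where it called 3.57% of genes lower, and edgeR called 3, 2 and 1, where it called 3.07% lower. Summed scaled counts of the phloem markers ran from 816 to 1197 in xal1-2, against 1524 to 2010 in WT. Sums of the xylem markers were 994 to 1059 in xal1-2, against 1247 to 1567 in WT. Those of the endodermis markers were 2739 to 2990 in xal1-2, against 3382 to 4117 in WT. None of the 3 root hair, 4 meristem and 10 green tissue markers was called by limma-trend, edgeR or DESeq2, with 0, 1 and 0 of them at an unadjusted limma p under 0.05. The green tissue sum ranged from 3911 to 6871 in xal1-2 and from 4748 to 6443 in WT.

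Levels of the enzyme genes spanned a wide range and were set by a few members of each class. Per kb of exon, APX1, the main cytosolic ascorbate peroxidase, stood highest, at 7350.3 ± 522 scaled counts in xal1-2 and 8331 ± 255 in WT (SD, n = 3 each). It was followed in WT by DHAR1 at 5632 ± 643, CSD1 at 4272 ± 161, GPX6 at 3898 ± 589.6, FSD1 at 3389 ± 133, GPX2 at 3325 ± 796 and MSD1 at 2575 ± 52.2 per kb. In this order CSD1 and GPX6, and likewise GPX6, FSD1 and GPX2, lay within about a replicate SD of each other. In WT, 13 of the 38 reached 1000 per kb and 8 were under 100 per kb. APX2, GPX4 and GPX7 had a mean scaled count under 10, too few reads for a fold change to be read from them.

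**Figure D1:**
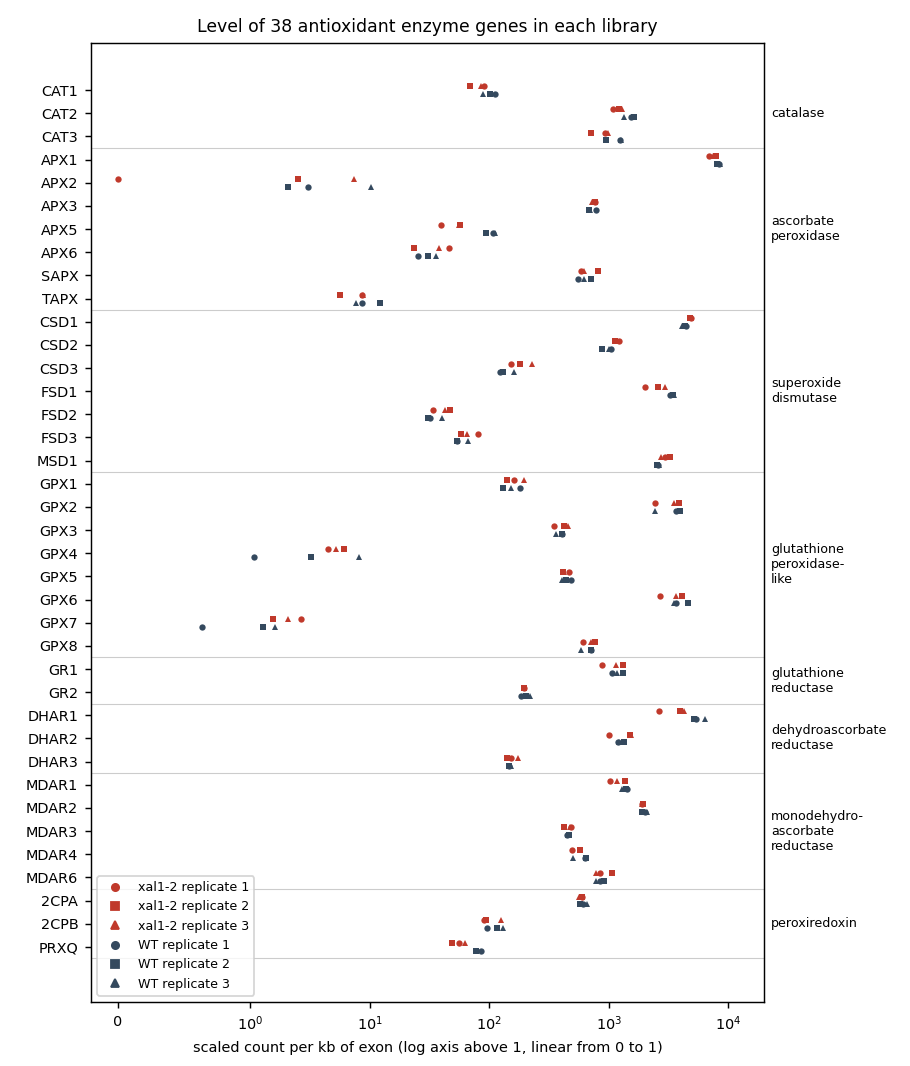
Level of each of the 38 genes in every library, as scaled count per kb of exon on the horizontal axis (log axis above 1, linear from 0 to 1), with xal1-2 libraries in red above WT libraries in dark blue and 1 marker shape per replicate. APX1 lies highest, APX2, GPX4 and GPX7 lie lowest, and the red and blue points of most genes overlap. All red points lie to the left for CAT2, APX1, APX5, FSD1, DHAR1 and PRXQ, and to the right for CSD1, CSD2 and MSD1.

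Between genotypes, the transcripts of the antioxidant system were mostly close to each other, and 1 gene passed the test. APX5, an ascorbate peroxidase gene placed with the peroxisomal members, fell in xal1-2 and was the single member called by limma-trend at a Benjamini-Hochberg adjusted p under 0.05, where 3.93% of the 24441 genes tested were called (961 genes). Of these genes 405 were higher (1.66% of those tested) and 556 lower (2.27%), against 569 higher and 401 lower with library totals as scaling. By limma-trend APX5 also passed the study's limit of a fold above 1.5, which 2.88% of genes passed together with the adjusted p. The members' 1 of 38 is 2.63%, below that background. Fold changes of 20 members were below 0 and those of 18 above 0, with a median log2 fold change of -0.025, against -0.0040 over all genes tested. With library totals both medians lay above 0, at 0.036 for the members and 0.053 for all genes.

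The groups of libraries did not overlap for 9 of the 38 members (23.7%), against 23.8% of all genes. Of these, 6 were lower in every xal1-2 library (CAT2, APX1, APX5, FSD1, DHAR1 and PRXQ), where the share over all genes is 11.7%, and 3 were higher in every xal1-2 library (CSD1, CSD2 and MSD1), where it is 12.1%. At an unadjusted limma p under 0.05 there were 6 members on the lower side (CAT2, CAT3, APX5, FSD1, DHAR1 and PRXQ), against 10.5% of all genes, and 2 on the higher side (CSD2 and CSD3), against 9.02%, where 19.6% of all genes lay on either side. DESeq2 called 3 members, all lower (APX5, DHAR1 and FSD1), where it called 5.62% of 18753 genes, 3.57% lower. With edgeR APX5 alone was called, where 5.56% of 18918 genes were called, 3.07% lower. For 20 members the 95% interval of the log2 fold change lay within 0.5 of 0 on both sides, and for 33 it lay within 1.

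**Figure D2:**
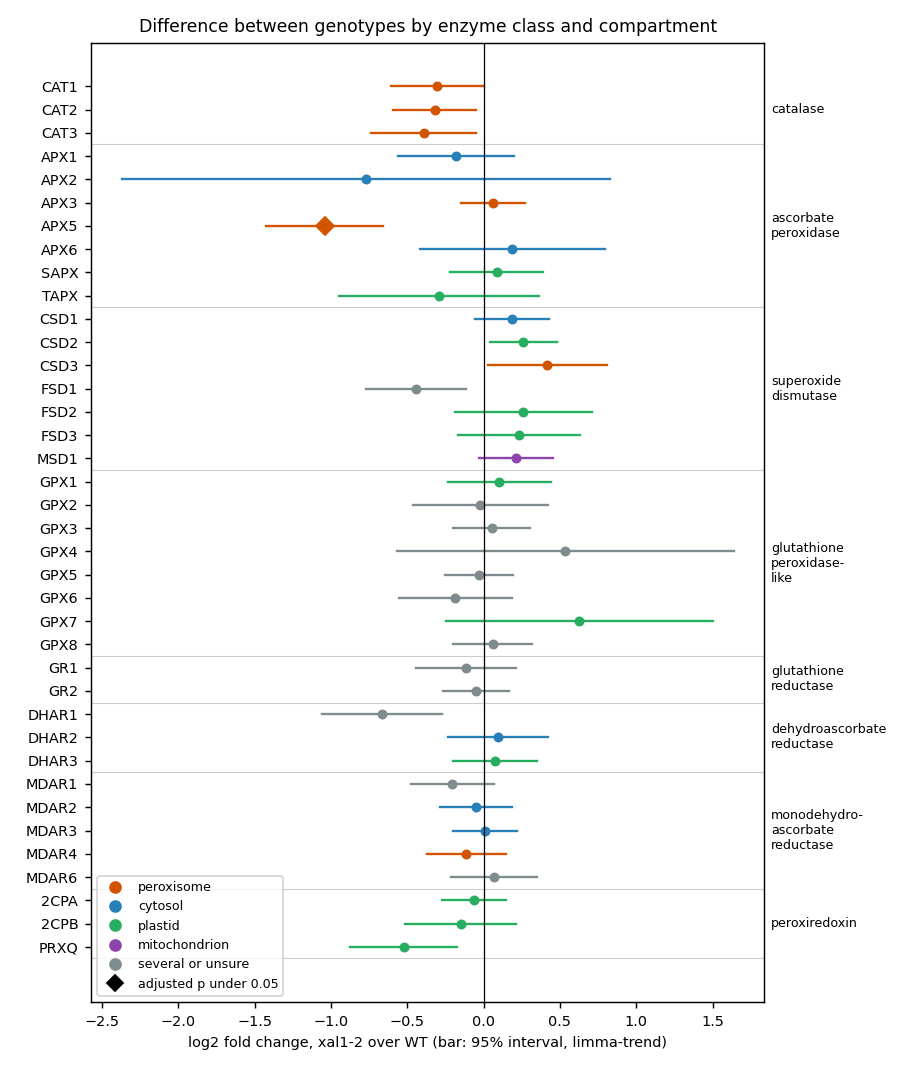
Log2 fold change of each gene, xal1-2 over WT, on log2(scaled count + 1), with its 95% interval from limma-trend, grouped by enzyme class and coloured by the compartment of the protein. APX5, the diamond at -1.04, is the gene with an adjusted p under 0.05. Intervals of APX2, GPX4 and GPX7 are the widest, and all 3 catalases and all 3 peroxiredoxins have estimates below 0.

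Among the ascorbate peroxidases, APX5 (AT4G35970, chr4:17028586-17030558 on the plus strand of TAIR10.1, 9 exons) had scaled counts of 53.6, 77.2 and 75.0 in xal1-2, against 144, 127 and 152 in WT. Every xal1-2 library lay below every WT library, and the mean was 68.6 ± 13.0 in xal1-2 and 141 ± 12.8 in WT, a ratio of 0.487. The log2 fold change was -1.04 (SE 0.18, 95% interval -1.43 to -0.66, limma adjusted p = 0.0105), with adjusted p = 0.0101 in edgeR and 0.000404 in DESeq2. The authors' deposited table gives -1.03 with an adjusted p of 0.000414. The limma call was absent without xal1-2 replicate 1, the lowest library (log2 fold change -0.88, adjusted p = 0.0719), and present without any 1 of the other 5 libraries. Because the samples are bulk roots, fewer cells that express a gene and less RNA per cell cannot be told apart. The part that the lower phloem, xylem and endodermis markers have in this difference and in the lower values of other members was not tested.

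The sequence upstream of APX5 is shown since it is the member that passed the test, taken from the RefSeq TAIR10.1 assembly at chr4:17028336-17028585 (plus strand, 250 bases that end at the annotated start). It was searched on both strands for the CArG box, the motif that MADS-box proteins are known to bind, and would carry capitals where the motif matched.
APX5 upstream: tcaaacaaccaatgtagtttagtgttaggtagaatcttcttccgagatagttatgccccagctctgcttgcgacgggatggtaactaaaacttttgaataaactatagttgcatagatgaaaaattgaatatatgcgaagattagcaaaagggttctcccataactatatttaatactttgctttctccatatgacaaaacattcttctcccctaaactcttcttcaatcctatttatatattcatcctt
No match is present in these letters, which says nothing of other parts of the locus. Of 27443 upstream windows of the same length, 2.52% held a match, and of the 38 members GPX7 alone held one.

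APX5 is a minor part of its class. Per kb of exon it made up 0.570 ± 0.0790% of the ascorbate peroxidase signal in xal1-2 and 1.06 ± 0.0721% in WT. APX3 (AT4G35000), which encodes the related peroxisomal membrane enzyme, had scaled counts of 1017, 1006 and 957 in xal1-2, against 1037, 897 and 929 in WT, and the groups overlapped (limma adjusted p = 0.754). The ratio of APX5 to APX3 scaled counts was 0.0527, 0.0767 and 0.0783 in xal1-2, against 0.139, 0.141 and 0.163 in WT, without overlap. It restates the APX5 difference within each library and was not tested, since these genes too were paired with their values known. Of the 50-base words of APX5, 2.80% are shared with AT4G35980 on the opposite strand, whose log2 fold change was 0.14 (limma adjusted p = 0.606).

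APX1 (AT1G07890) had scaled counts of 12204, 14072 and 13196 in xal1-2, against 15046, 14404 and 15287 in WT. The groups did not overlap, though the difference was small and did not pass the test (log2 fold change -0.18, SE 0.17, limma adjusted p = 0.625). APX1 made up 82.9 ± 0.625% of the class per kb in xal1-2 and 84.8 ± 0.597% in WT. Of the plastid enzymes, the stromal and mitochondrial SAPX ranged from 1163 to 1610.4 in xal1-2 and from 1094 to 1406 in WT, and the thylakoid-bound TAPX ranged from 14.2 to 22.1 in xal1-2 and from 19.2 to 30.9 in WT. APX6 ranged from 28.4 to 55.9 in xal1-2 and from 30.4 to 43.0 in WT. APX2, known as a heat and high light induced gene of leaves, had 0, 2.66 and 7.94 in xal1-2, against 3.26, 2.20 and 11.0 in WT. None of these 4 passed the test.

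**Figure D3:**
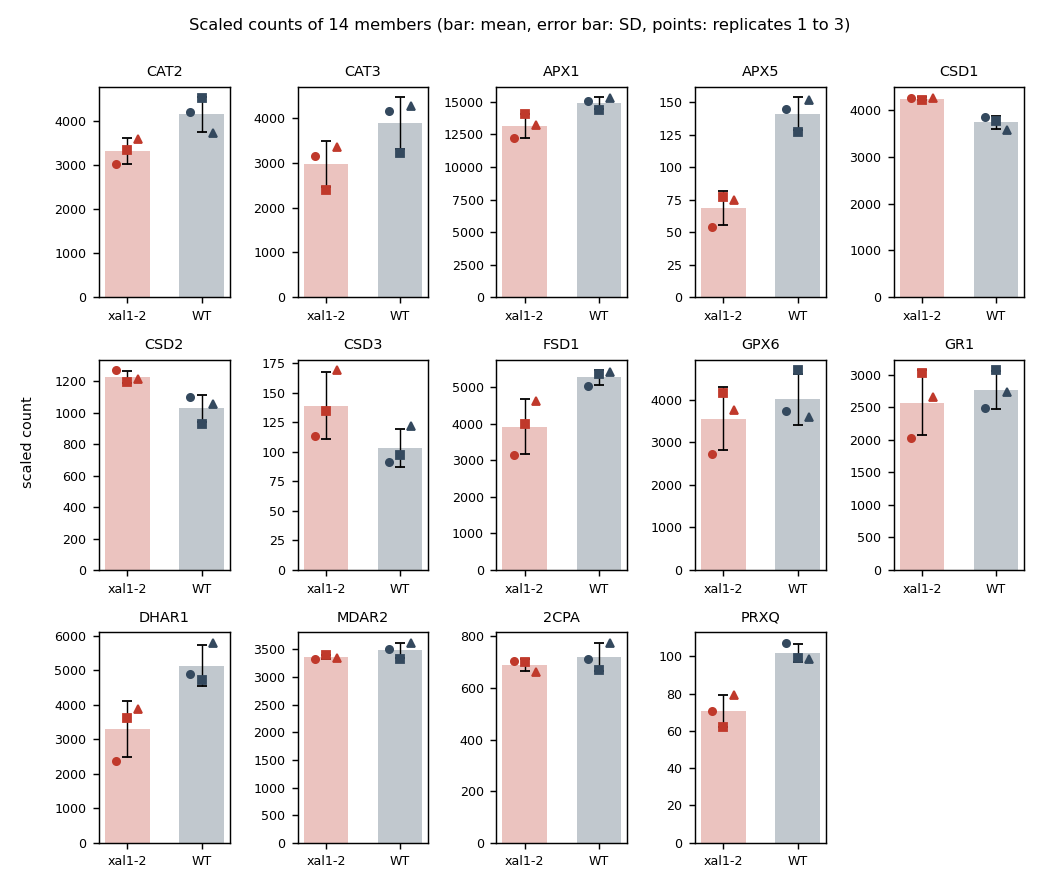
Scaled counts of 14 members in the 3 xal1-2 and the 3 WT libraries (bars are means, error bars the SD, and the circle, square and triangle are replicates 1, 2 and 3), each panel with its own axis from 0. The genotypes are apart for CAT2, APX1, APX5, CSD1, CSD2, FSD1, DHAR1 and PRXQ, and overlap for CAT3, CSD3, GPX6, GR1, MDAR2 and 2CPA.

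All 3 catalase genes had estimates below 0, and none passed limma-trend, edgeR or DESeq2, with 2 of the 3 at an unadjusted limma p under 0.05. CAT2 (AT4G35090), known in leaves as the main catalase of photorespiration, had scaled counts of 3022, 3351 and 3589 in xal1-2, against 4199, 4520.1 and 3736 in WT. All 3 xal1-2 libraries lay below the lowest WT library (log2 fold change -0.32, SE 0.13, limma adjusted p = 0.183). CAT3 (AT1G20620) had 3160.4, 2385 and 3356 in xal1-2, against 4163, 3219.8 and 4275 in WT. Here xal1-2 replicate 3 lay above WT replicate 2, so the groups overlapped (log2 fold change -0.39, SE 0.16, limma adjusted p = 0.196). CAT1 (AT1G20630), the least abundant of the 3, ranged from 154 to 202 in xal1-2 and from 198 to 249.7 in WT (log2 fold change -0.30, limma adjusted p = 0.258).

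Summed over the class, catalase scaled counts were 6385, 5890.5 and 7134 in xal1-2, against 8612, 7965 and 8209.6 in WT, a ratio of means of 0.783. The sums did not overlap, and they did not overlap as a share of all reads either, at 0.0802%, 0.0718% and 0.0880% in xal1-2, against 0.10005%, 0.0934% and 0.10023% in WT. The shares of the 3 genes within the class were alike in the genotypes, with CAT2 at 55.8 ± 4.80% per kb in xal1-2 and 54.6 ± 5.59% in WT, and CAT3 at 40.5 ± 4.45% in xal1-2 and 41.7 ± 5.77% in WT. NCA1, a chaperone that catalase needs for its activity, had a log2 fold change of -0.034 (limma adjusted p = 0.881).

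**Figure D4:**
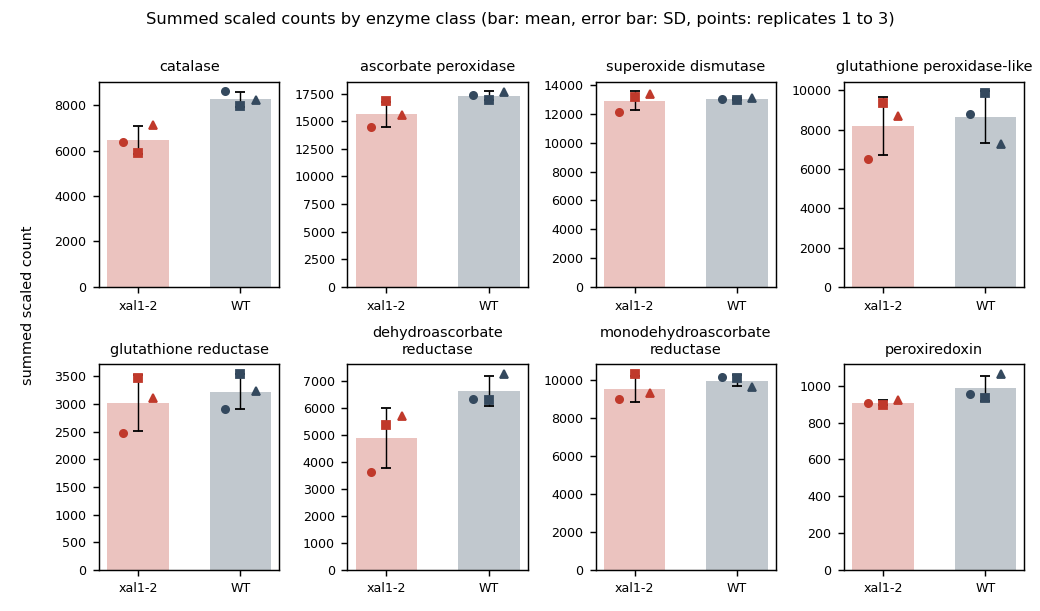
Summed scaled counts of the 8 enzyme classes in the xal1-2 and WT libraries (bars are means, error bars the SD, points are replicates 1, 2 and 3, axes start at 0). Sums of catalases and dehydroascorbate reductases are lower in every xal1-2 library, the small peroxiredoxin and ascorbate peroxidase differences also separate the libraries, and the other 4 classes overlap.

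Among the superoxide dismutases FSD1 stood on the other side from the rest. Of the 7 genes, 6 had estimates above 0 and 1, FSD1, below it, with a median log2 fold change of 0.23, and none passed limma-trend, which gave 2 of them an unadjusted p under 0.05 on the higher side and 1 on the lower side. FSD1 (AT4G25100, chr4:12884300-12887011 on the minus strand, 8 exons), the iron enzyme of plastids, cytosol and nucleus, had scaled counts of 3141, 3999 and 4615 in xal1-2, against 5026, 5359 and 5405 in WT. The groups did not overlap (mean 3918 ± 740.3 in xal1-2 and 5263 ± 207 in WT, log2 fold change -0.44, SE 0.15, 95% interval -0.77 to -0.11), and xal1-2 replicate 1 was the lowest library. The adjusted p was 0.128 in limma, 0.119 in edgeR and 0.0456 in DESeq2, so the call rests on the tool. The other iron enzymes, FSD2 and FSD3 of the plastid nucleoid, had estimates above 0 like the copper and zinc enzymes (log2 fold changes 0.26 and 0.23, limma adjusted p = 0.531 and 0.533) and were at 63.5 ± 9.95 and 86.1 ± 14.2 in xal1-2, against 52.8 ± 8.13 and 72.9 ± 9.71 in WT, with overlapping groups.

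The copper and zinc enzymes had estimates above 0. CSD1 (AT1G08830) of the cytosol had scaled counts of 4261, 4203 and 4257 in xal1-2, against 3856, 3754 and 3579 in WT, and every xal1-2 library was above every WT library (log2 fold change 0.19, SE 0.11, limma adjusted p = 0.399). CSD2 (AT2G28190) of the plastid had 1271, 1194 and 1213 in xal1-2, against 1098, 928 and 1053 in WT, again without overlap (log2 fold change 0.26, SE 0.10, limma adjusted p = 0.175). CSD3 (AT5G18100) of the peroxisome had 113, 135 and 169 in xal1-2, against 91.2, 97.0 and 122 in WT, with 1 xal1-2 library inside the WT range (log2 fold change 0.42, SE 0.18, limma adjusted p = 0.223). CSD3 shares 24.3% of its 50-base words with AT5G18110 on the opposite strand, and its reads are uncertain where the strand setting of the counting is not known. MSD1 (AT3G10920), the manganese enzyme of mitochondria, had 3206, 3508 and 2973 in xal1-2, against 2812, 2722 and 2826 in WT, without overlap (log2 fold change 0.21, limma adjusted p = 0.33).

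FSD1 was lower and CSD1 and CSD2 were higher in every xal1-2 library. Their ratios therefore could not overlap between the genotypes and add no separate result, while the class sums overlapped. The ratio of FSD1 to CSD1 scaled counts was 0.737, 0.951 and 1.08 in xal1-2, against 1.303, 1.427 and 1.510 in WT. The ratio of FSD1 to CSD2 was 2.47, 3.35 and 3.80 in xal1-2, against 4.58, 5.78 and 5.13 in WT. Neither ratio was tested, since the genes were paired with their values known. Per kb of exon FSD1 made up 21.3 ± 3.38% of the class in xal1-2 and 29.6 ± 1.29% in WT, and CSD1 made up 41.1 ± 1.68% in xal1-2 and 37.3 ± 1.39% in WT. The class sum ranged from 12146 to 13377 in xal1-2 and from 12974 to 13130.1 in WT.

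CSD1, CSD2 and the copper chaperone gene CCS are known targets of miR398, a microRNA that plants make when copper is scarce. The sites below are shown since they are what CSD1, CSD2 and CCS share and CSD3 and the FSD genes are not known for. Mature sequences are those of the RefSeq TAIR10.1 annotation, with the seed (bases 2 to 8) in capitals. Sites are in transcript orientation, with bases that form Watson-Crick pairs with the microRNA in capitals. G:U wobble pairs are in lower case and are not counted as paired.
ath-miR398a-3p: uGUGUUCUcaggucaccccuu
ath-miR398b-3p: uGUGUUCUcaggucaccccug
CSD1 site: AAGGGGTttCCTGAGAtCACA
CSD2 site: tgcGGGTGACCTGgGaAACAtA
CCS site: CAttGGGaGACCTGgGAACACt
The microRNAs lie at chr2:1041012-1041032 and chr5:4691107-4691127, both on the plus strand, share the seed and differ in the last base, and ath-miR398c-3p (chr5:4694778-4694798, plus strand) has the letters of ath-miR398b-3p. The CSD1 site joins chr1:2827177-2827191 and chr1:2827680-2827685 across an exon junction outside the coding part (plus strand), and 18 of 21 microRNA bases pair. The CSD2 site (chr2:12015572-12015593, plus strand) and the CCS site (chr1:4267521-4267542, minus strand) are coding, with 16 and 17 of 21 bases paired and 1 bulged base each. Of the 5 bases of CSD2 and the 4 of CCS counted as unpaired, 4 and 1 are G:U wobble pairs. The best stretch of CSD3 pairs with 13 of 21 bases, and 2 of its 8 unpaired bases are G:U wobble pairs. A match of letters is a description and shows no cleavage.

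The genes around this copper supply were not uniform. CCS had scaled counts of 411, 377 and 454 in xal1-2, against 396, 361 and 371 in WT, with overlapping groups (log2 fold change 0.13, limma adjusted p = 0.531). COPT2 (AT3G46900), a copper uptake carrier of the root surface known to be made under copper deficiency, had 184, 295 and 176 in xal1-2, against 479, 458 and 291 in WT, and fell by 0.91 on the log2 scale (SE 0.22, limma adjusted p = 0.0444), although xal1-2 replicate 2 lay just above WT replicate 3. This call was absent with a pseudocount of 0.1 or 5 (limma adjusted p = 0.0558 and 0.0548) and without WT replicate 1, WT replicate 2, xal1-2 replicate 1 or xal1-2 replicate 3 (0.127, 0.175, 0.239 and 0.128). Its relative COPT1 had 65.1, 71.0 and 69.7 in xal1-2, against 35.8, 47.4 and 35.6 in WT, without overlap (log2 fold change 0.79, limma adjusted p = 0.0516, edgeR adjusted p = 0.0372). SPL7, the transcription factor of the copper deficiency response, had 436, 414 and 360.0 in xal1-2, against 521, 549 and 484 in WT, without overlap (log2 fold change -0.36, limma adjusted p = 0.0857).

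The precursor gene of ath-miR398b (AT5G14545) was named after its values were seen, and had 9.13, 6.21 and 9.71 in xal1-2, against 17.4, 16.5 and 11.0 in WT (log2 fold change -0.77, limma adjusted p = 0.231). It lies wholly inside AT5G14550 on the opposite strand, so its reads are uncertain, and mature microRNAs are not captured by poly(A) libraries. The precursor genes of ath-miR398a (AT2G03445) and ath-miR398c (AT5G14565) were not examined, so these values say nothing of miR398 as a whole. SPL7 is known to bind the letters GTAC. Within 250 bases upstream of the annotated start, searched on both strands, which read alike for this motif, CSD1 had 2 matches, FSD1 and CSD3 had 1 each, and CSD2, MSD1, FSD2 and FSD3 had 0. Of the copper supply genes CCS had 1 match, and COPT1 and COPT2 had 0. GTAC was present in 34.3% of all 27443 windows and in 18 of the 38 members (47.4%), and 7.67% of all windows held 2 or more.

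**Figure D5:**
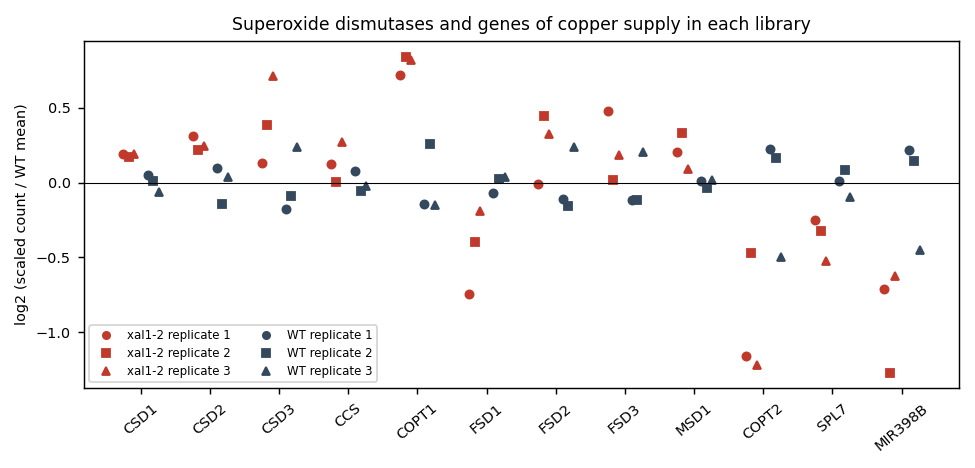
Superoxide dismutase genes with genes of copper supply in each library, as log2 of the scaled count over the WT mean, with xal1-2 libraries in red to the left of WT libraries in dark blue. Red points lie above all blue points for CSD1, CSD2, COPT1 and MSD1 and below all of them for FSD1, SPL7 and the MIR398B precursor, while CSD3, CCS, FSD2, FSD3 and COPT2 overlap.

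Among the thiol peroxidases, the glutathione peroxidase-like genes showed no difference by limma-trend, edgeR or DESeq2, and 0 of the 8 had an unadjusted limma p under 0.05. These enzymes, which in plants draw mainly on thioredoxin, are led in the root by GPX6 and GPX2. GPX6 (AT4G11600) had scaled counts of 2734, 4159 and 3765 in xal1-2, against 3722, 4699 and 3589.8 in WT, with overlapping groups (log2 fold change -0.18, limma adjusted p = 0.608). GPX2 ranged from 2175 to 3461 in xal1-2 and from 2164 to 3499 in WT. The plastid enzyme GPX1 was at 206 ± 32.9 in xal1-2 and 192 ± 31.5 in WT. GPX3, GPX5 and GPX8 were at 439.9 ± 57.2, 494 ± 27.7 and 568 ± 64.4 in xal1-2, against 422 ± 27.1, 505 ± 44.9 and 545 ± 59.9 in WT. GPX4 and GPX7 had from 1.09 to 8.23 scaled counts in any library. GPX3 and GPX7 share 18.3% and 49.5% of their 50-base words with genes on the opposite strand, so their reads are uncertain.

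The peroxiredoxins of the plastid gave 1 gene apart from the rest. PRXQ (AT3G26060), a monomeric thioredoxin-dependent peroxidase, had scaled counts of 70.8, 62.1 and 79.4 in xal1-2, against 107, 99.2 and 98.7 in WT. The groups did not overlap, and the difference did not pass the test (log2 fold change -0.52, SE 0.16, limma adjusted p = 0.0971, DESeq2 adjusted p = 0.190). 2CPA (AT3G11630), the more abundant of the 2-Cys pair, had 704, 701 and 663 in xal1-2, against 712, 671 and 776 in WT (log2 fold change -0.060, limma adjusted p = 0.754). 2CPA shares 14.8% of its 50-base words with AT3G11620 on the opposite strand, and its reads are uncertain to that extent. 2CPB ranged from 130.1 to 182 in xal1-2 and from 139 to 189 in WT. PRXQ and 2CPA both act in plastids. The 10 green tissue markers did not separate the genotypes, and a link between these markers and the PRXQ difference was not tested.

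In the recycling of ascorbate, DHAR1 stood apart from its relatives. This gene (AT1G19570, chr1:6773302-6774523 on the minus strand, 3 exons), whose product restores ascorbate from dehydroascorbate with glutathione, had scaled counts of 2379.7, 3617 and 3888 in xal1-2, against 4893, 4711 and 5805 in WT. Every xal1-2 library was below every WT library, with a mean of 3295 ± 804 in xal1-2 and 5136 ± 586 in WT. The log2 fold change was -0.67 (SE 0.18, 95% interval -1.06 to -0.27), with an adjusted p of 0.063 in limma, 0.0662 in edgeR and 0.00461 in DESeq2. Leaving out 1 library at a time gave log2 fold changes from -0.80 to -0.45 and limma adjusted p from 0.061 to 0.206.

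The other dehydroascorbate reductase genes did not follow. The cytosolic DHAR2 had scaled counts of 1066, 1583 and 1620.1 in xal1-2, against 1254, 1415 and 1268 in WT, with overlap. The plastid DHAR3 had 164, 153 and 189.7 in xal1-2, against 157, 158 and 165 in WT, also with overlap. The ratio of DHAR1 to DHAR2 was 2.23, 2.29 and 2.40 in xal1-2, against 3.90, 3.33 and 4.58 in WT. This ratio did not overlap and was narrow in xal1-2, where replicate 1 was the lowest of the 3 libraries in both genes. It was not tested, since the pair was chosen with its values known. DHAR1 made up 70.4 ± 1.12% of the class per kb in xal1-2 and 80.1 ± 2.40% in WT. The class sum was 3610.1, 5354 and 5698 in xal1-2, against 6304, 6283 and 7239 in WT, a ratio of means of 0.74, and as a share of reads it also did not overlap.

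DHAR1 shares 15.4% of its 50-base words with AT1G19540 and AT1G19550, so the counting could divide reads among them. AT1G19540, named for this reason, had scaled counts of 9.13, 12.4 and 14.1 in xal1-2, against 46.7, 25.3 and 40.2 in WT, and fell by 1.55 on the log2 scale (limma adjusted p = 0.0224). Its counts are small beside those of DHAR1, and its call was absent without either xal1-2 replicate 1 or 2 or without WT replicate 1 or 3 (limma adjusted p from 0.0573 to 0.131). AT1G19550 had a mean of 2.74 in xal1-2 and 3.16 in WT.

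Monodehydroascorbate reductases and glutathione reductases were close in the genotypes, with 0 of 7 genes at an unadjusted limma p under 0.05 and none called by edgeR or DESeq2. MDAR2 (AT5G03630), the cytosolic gene that leads its class per kb, had scaled counts of 3335, 3402 and 3336 in xal1-2, against 3503, 3327 and 3614 in WT (log2 fold change -0.051, 95% interval -0.29 to 0.19, limma adjusted p = 0.821). MDAR1 was at 2303 ± 338 in xal1-2 and 2638 ± 143 in WT, and MDAR4 of the peroxisomal membrane at 1077 ± 94.6 in xal1-2 and 1169 ± 149 in WT. MDAR3 was at 731 ± 50.4 in xal1-2 and 724 ± 18.3 in WT, and MDAR6 at 2069 ± 339 in xal1-2 and 1959 ± 149.8 in WT. GR1 (AT3G24170), whose product works in cytosol and peroxisome, had 2032, 3029 and 2649.9 in xal1-2, against 2483, 3066 and 2727 in WT (log2 fold change -0.12, 95% interval -0.45 to 0.21, limma adjusted p = 0.724). GR2, the enzyme of plastids and mitochondria, was at 452 ± 0.994 in xal1-2 and 469 ± 41.2 in WT.

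Ordered by compartment instead of class, the 7 peroxisomal genes had 5 estimates below 0 and a median log2 fold change of -0.30, against -0.0040 over all genes. They joined genes on both sides, the catalases, APX5 and MDAR4 below 0, and APX3 and CSD3 above it. The 11 plastid genes had 7 estimates above 0 and a median of 0.087, the 7 cytosolic genes a median of 0.010, and the 12 genes whose proteins work in several places or are unsure a median of -0.039. MSD1, the 1 gene assigned to mitochondria alone, was at 0.21. The assignment is coarse: SAPX was counted with the plastid genes and GR2 with those of several places, although both proteins are known from plastids and mitochondria. Summed scaled counts of the peroxisomal genes ran from 8247 to 9461 in xal1-2 and from 10348 to 11131.5 in WT, without overlap. Most of this is the catalase sum already given, at 5890.5 to 7134 in xal1-2 and 7965 to 8612 in WT. The separation is thus no second result, and the other peroxisomal genes were not summed apart. Sums of the genes of several or unsure places were also lower in every xal1-2 library, at 18257 to 25376 in xal1-2 and 25834 to 28122 in WT. Plastid sums were higher in every xal1-2 library, at 3885 to 4194 in xal1-2 and 3671 to 3875 in WT, and cytosolic sums overlapped, at 21684 to 23963 in xal1-2 and 23680.2 to 24530.1 in WT. Compartment sums were compared on scaled counts only and not as a share of reads. Whether the gaps of the plastid genes and of the several or unsure places depend on the size factors was not tested.

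Over all 38 genes the summed scaled count was 55568, 65288 and 63768 in xal1-2, against 68094, 68609.9 and 67474 in WT, without overlap. As a share of all reads it was 0.698%, 0.796% and 0.786% in xal1-2, against 0.791%, 0.804% and 0.824% in WT, so that the groups overlapped once totals took the place of size factors. The ascorbate peroxidase and peroxiredoxin sums, with ratios of means of 0.902 and 0.922, also separated on scaled counts and overlapped as a share of reads. The low end came from xal1-2 replicate 1, which was the lowest of the 3 xal1-2 libraries in 17 of the 30 members with a mean of at least 100, whereas it was lowest for 35.5% of all genes at that level.

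In 8 lists of 56 related genes, 2 rose and 3 fell by limma-trend. These are 3.57% and 5.36% of the 56, where 1.66% of all genes tested were called higher and 2.27% lower, and the lists were chosen with earlier results known. VTC2 (AT4G26850), which encodes the GDP-L-galactose phosphorylase that controls ascorbate synthesis, had scaled counts of 176, 249 and 283 in xal1-2, against 377, 457 and 399 in WT, without overlap (log2 fold change -0.82, SE 0.16, limma adjusted p = 0.0204). Without WT replicate 2, WT replicate 3, xal1-2 replicate 1 or xal1-2 replicate 2 it missed the threshold (limma adjusted p from 0.0506 to 0.104). It was the 1 of 10 ascorbate synthesis genes called, and VTC5, its close relative, had a log2 fold change of -0.30 (limma adjusted p = 0.357). GOX1 (AT3G14420), a peroxisomal glycolate oxidase that makes hydrogen peroxide, had 38.8, 25.7 and 46.8 in xal1-2, against 9.77, 7.71 and 14.6 in WT, without overlap (log2 fold change 1.71, SE 0.33, limma adjusted p = 0.0187). It missed the threshold without WT replicate 1, WT replicate 2, xal1-2 replicate 1 or xal1-2 replicate 3 (limma adjusted p from 0.0508 to 0.133). The other 8 peroxisomal oxidase genes were not called, GOX2 among them (log2 fold change 0.083, limma adjusted p = 0.794).

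Of 9 genes used as reporters of oxidative stress, UPOX (AT2G21640), which encodes a mitochondrial protein, had scaled counts of 425, 634 and 589 in xal1-2, against 21.7, 16.5 and 102 in WT (log2 fold change 3.97, SE 0.50, limma adjusted p = 0.0021). The adjusted p was 0.0692 without xal1-2 replicate 1, and the log2 fold change was 4.76 without WT replicate 3, the WT library with 102. AT1G05340 of the same list moved the other way, with 129, 182 and 215 in xal1-2, against 355, 309.6 and 279.7 in WT (log2 fold change -0.86, SE 0.17, limma adjusted p = 0.0225). That call was absent without WT replicate 1, WT replicate 2, xal1-2 replicate 1 or xal1-2 replicate 2 (limma adjusted p from 0.0569 to 0.116). The other 7 were not called. COPT2 was the 1 of 7 called in the list of maturation factors and copper supply. None was called by limma-trend among 3 ascorbate oxidases, 2 glutathione synthesis genes, 7 other peroxiredoxin and sulfiredoxin genes, and 9 genes of the thioredoxin system, where 0, 0, 2 and 1 had an unadjusted p under 0.05. In the last of these lists edgeR called 1, TRXH4, at 147 ± 25.4 in xal1-2 and 94.8 ± 7.10 in WT (log2 fold change 0.62, edgeR adjusted p = 0.045).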

How the data were processed

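Per the labels, 6 stranded mRNA libraries were sequenced from root RNA. Reads were handled with Trimmomatic 0.39, FastQC 0.11.9, Subread 2.0.1 and DESeq2 on the TAIR10 build, per the submitters' processing notes; settings for strand and multi-mapping reads are not given. The deposited library columns hold a signal: the authors divided read counts by 1 size factor for each library, and 100% of values came out as whole reads within a tolerance of 0.001. Further deposited columns hold the authors' log2 fold changes, test statistics (a score) and p-values, quoted where that table is named.

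The table held scaled and not raw counts, so the test was limma 3.58.1 (R 4.3.3) with an intensity trend (limma-trend) on log2(scaled count + 1), a pseudocount of 1, which understates changes of low genes. It was fitted to the 24441 genes above 0 in at least 1 library, all 38 members among them, with genotype as the only term and Benjamini-Hochberg adjustment over all of them; a gene was called at adjusted p under 0.05. The p-values measure the spread between 3 pooled biological replicates per genotype. Alternatives were edgeR 4.0.16 (quasi-likelihood, TMM, filterByExpr) and DESeq2 1.42.0 on the recovered reads, which gave adjusted p-values for 35 members, library totals, TMM factors, pseudocounts of 0.1 and 5, a mean of at least 10, the replicate number as a block, and leaving out each library. The fits were tested on simulated data.

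Library pairs of a genotype differed by more than sampling noise (chi-square per degree of freedom 3.94 to 9.70). Lengths per kb, coordinates and sequences are those of RefSeq TAIR10.1. Members, compartments and lists come from background knowledge and were chosen with earlier results of these data known. Values in every library are given for members called by any tool or at an unadjusted p under 0.05 and for the member of each class with the highest level per kb; related genes are given where called, and others discussed beside a member were added.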

Additional observations from a re-analysis of the deposited data

How the results depend on the processing

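Across 14 alternatives, 14 members were followed, those called by any tool or at an unadjusted limma p under 0.05 and the leading member of each class. Their log2 fold changes kept their direction except GR1 without xal1-2 replicate 1 (0.044, and down to -0.24 with another library left out), MDAR2 with library totals (0.0094) and 2CPA with library totals (0.00041). APX5 was called under all alternatives but the one without xal1-2 replicate 1 (adjusted p = 0.0719). The number of members called was 3 with DESeq2 on recovered reads (APX5, DHAR1 and FSD1), 2 with the replicate block (APX5 and DHAR1), and from 0 to 1 when 1 library was left out, with 0 without xal1-2 replicate 1. DHAR1 had an adjusted p of 0.00461 and FSD1 of 0.0456 in DESeq2. The cause of these differences was not tested. The median log2 fold change of the members was 0.036 with library totals, and from -0.058 to 0.019 when 1 library was left out. Genes called over the table numbered 81 (without xal1-2 replicate 1) to 871 (without WT replicate 3) with 1 library left out, 1051 in edgeR and 1054 in DESeq2. With the replicate number as a block 839 genes were called, and DHAR1 had an adjusted p of 0.0478. Whether the replicate numbers pair the samples is not settled. Deviations of same-numbered libraries correlated at 0.010, 0.28 and 0.011 over 18823 genes. The 0.28 of replicate 2 was the highest of all pairs across genotypes, while xal1-2 replicate 1 correlated best with WT replicate 3 (0.18). These correlations cannot show whether libraries shared a batch. With 3 libraries per genotype and 6978879 to 9247089 reads each, the 95% interval of 5 members (APX2, APX5, GPX4, GPX7 and DHAR1) reached beyond 1 on the log2 scale, so the size of a difference in these genes is loosely set.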
